A study of Glycine max with 18 samples.

Results

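The genes described here are 200 annotated soybean genes with a wide range of transcript level over the day and their highest level at ZT24, the first of 6 time points sampled in constant light. They were chosen by the measured levels themselves, out of 55589 annotated genes, of which 24620 were expressed (TPM, an abundance scaled by gene length and by library, averaging 1 or more at some time point). A gene was taken if its level was highest at ZT24 in each of the 3 replicates and if its highest and lowest time-point means differed by at least 2 on the log2(TPM + 1) scale, a 4-fold difference where TPM is high. Of the expressed genes, 2776 had their highest mean at ZT24, 855 had it there in each replicate, and 297 of these also had the range. A list of 7 genes was left out by name, 1 of which met the other conditions, and the 200 genes with the widest range among the remaining 296 are the members.

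The 18 RNA-seq libraries came from the first trifoliate leaf of the wild-type soybean cultivar Williams 82 (Ws82). There was 1 genotype and 1 treatment, and all plants had been moved from days of light and dark into constant light (free-running conditions) before sampling. The groups were 6 time points that followed each other by 4 h (ZT24 through ZT44), with the biological replicates L, M and R at each. The labels count these times from 0 h to 20 h. The names with ZT (zeitgeber time) follow the paper. For the growth before sampling the labels give 18 d in short days (8 h light, 16 h dark) and constant light at 25 °C, whereas the description of the series gives 14 d in equal days (12 h light, 12 h dark, 24 °C). The labels' extraction text also speaks of rice leaves. The leaf could not be checked against marker genes, because the files pair no identifier with a gene name or product.

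The plant circadian clock is a set of transcription factors that repress each other in turn, so that each is abundant at its own time of day. Morning-expressed MYB-like factors of the LHY and CCA1 family repress genes of the evening, and PRR factors and an evening complex that holds LUX repress the morning genes. Genes driven by the clock keep cycling in constant light, and a maximum near subjective dawn is typical of the LHY family itself. ZT24 stands for subjective dawn after a day in constant light. The series ends at ZT44, and ZT48 was not sampled, so a return to the ZT24 level could not be seen.

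Libraries differed in depth and in composition. The aligned sequence was 5.40 to 6.70 Gb at ZT24, 5.88 to 7.13 Gb at ZT28, 5.17 to 6.12 Gb at ZT32, 4.93 to 6.71 Gb at ZT36, 5.46 to 7.24 Gb at ZT40 and 3.11 to 3.53 Gb at ZT44, so that low values at ZT44 rest on the fewest reads. One library, ZT32 R, stood apart: its annotated genes summed to 51.3% of 1000000 TPM, the lowest of the 18, against 78.6% in ZT40 M, the highest. It also listed 227701 assembled loci without a strand, against 24321 and 26574 in the other ZT32 libraries and 803 to 2405 at ZT24. The counts of members by lowest point and the total calls between ZT40 and ZT32 are given with and without ZT32 R. So are the calls in both comparisons together and the differences printed for single members between ZT40 and ZT32, while all other results include it. The part of these features in the results was not tested.

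All values of the members at ZT24 and their ranges entered the choice of genes and are given as a description. The mean TPM at ZT24 ran from 4.49 to 1799 with a median of 29.2 (quartiles 13.4 and 60.3), with 31 members over 100 TPM and 2 under 5 TPM. The range from the highest to the lowest time point ran from 2.34 to 6.24 with a median of 3.14 on the log2(TPM + 1) scale, was at least 3 in 118 members and at least 4 in 34. At the limit of the choice, the last 3 members had ranges of 2.351, 2.347 and 2.344, and the next 3 genes had 2.343, 2.341 and 2.338, so the edge is set by differences in the third decimal. In 149 members all 3 ZT24 libraries were above all 15 others, a count that the rule favours and that was not taken for other genes. At the lowest point 76 members had a mean under 1 TPM, and 17 were listed at 0 in at least 1 library.

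The 3 ZT24 libraries were not equally high. Replicate R held the highest of the 3 ZT24 values for 12 members, against 107 for M and 81 for L. The coefficient of variation of the ZT24 values had a median of 13% and reached 70.0% in Glyma.01G208200, with 8.51, 29.0 and 10.7 TPM in L, M and R.

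Summed over the members, the level was 13375, 13653 and 11380 TPM in replicates L, M and R at ZT24. It was 4821, 7895 and 5752 TPM at ZT28 and 4448, 5540 and 2033 TPM at ZT32. The sum reached its lowest values at ZT36, with 2096, 2509 and 2051 TPM, and was 3120, 3007 and 2859 TPM at ZT40 and 6507, 6707 and 6593 TPM at ZT44. The replicates of ZT28 and of ZT32 were spread widely while those of ZT40 and ZT44 lay close together, and the ZT32 R value is as low as those of ZT36. As a share of all annotated TPM the members took 1.81% to 1.99% at ZT24 and 0.313% to 0.373% at ZT36. In leaf tissue measured in bulk, fewer cells of a type and less RNA per cell cannot be told apart.

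**Figure D1:**
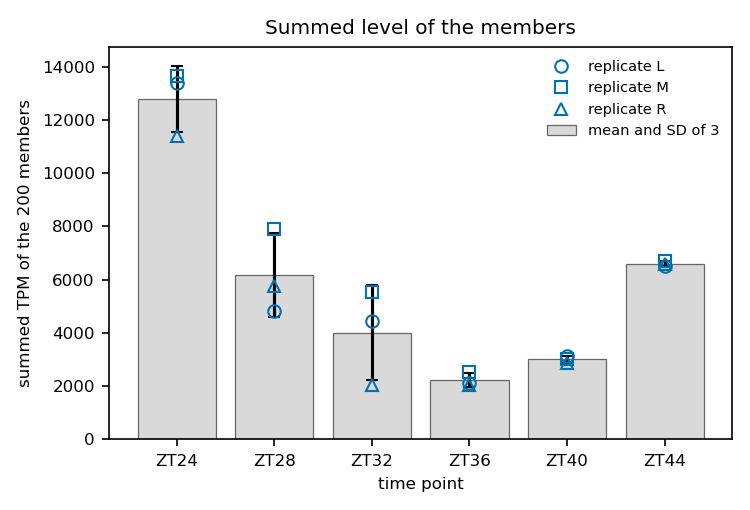
Summed TPM of the 200 members (y axis) at each time point (x axis), with bars for the mean, error bars for the SD of 3 replicates and symbols for replicates L, M and R. The ZT24 libraries sit between 11380 and 13653 TPM, and ZT32 R, at 2033 TPM, lies with the 3 ZT36 libraries.

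A single gene carried a large part of this sum. Glyma.06G150300, singled out after its values were seen (chromosome 6, 12266504 to 12268075, minus strand, Gmax_Wm82_a2_v1, as are all positions here), had 2047, 1798 and 1553 TPM at ZT24, 14.1% of the members' total there. It had 957, 1599 and 1038 TPM at ZT28, 968, 1321 and 412 TPM at ZT32, and 206, 198 and 171 TPM at ZT36. It then had 398, 291 and 352 TPM at ZT40 and 899, 1262 and 966 TPM at ZT44. Its lowest libraries were the 3 of ZT36, only the ZT28 M library reached into the ZT24 values, and ZT32 R was far below its replicates. Without the 3 members of highest level, the mean sum of the others was still 9932 TPM at ZT24, 4146 TPM at ZT28, 2520 TPM at ZT32, 1931 TPM at ZT36, 2489 TPM at ZT40 and 4948 TPM at ZT44.

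The members shared their highest time point by choice but not their lowest one. The lowest mean was at ZT28 in 28 members, at ZT32 in 64, at ZT36 in 85, at ZT40 in 8 and at ZT44 in 15. Among all expressed genes the lowest point was ZT24 in 12.7%, ZT28 in 16.1%, ZT32 in 44.8%, ZT36 in 9.94%, ZT40 in 1.21% and ZT44 in 15.2%. ZT36 was thus the lowest point of 42.5% of the members, against 9.94% of all expressed genes, although the expressed genes mostly lack a wide range. The same rule applied with another highest time point gave 200 genes each for ZT28, ZT36 and ZT44. Of those highest at ZT28, 154 were lowest at ZT36, of those highest at ZT44, 110 were lowest at ZT32 and 87 at ZT36, and of those highest at ZT36, 90 were lowest at ZT28. In 106 members the lowest point was the same in each replicate.

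Which members counted as lowest at ZT32 depended on ZT32 R. Without that library 35 members were lowest at ZT28, 46 at ZT32 and 92 at ZT36, and 180 of the 200 kept their lowest point. The shares over all expressed genes and over the other wide-range genes were not recounted without it.

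**Figure D2:**
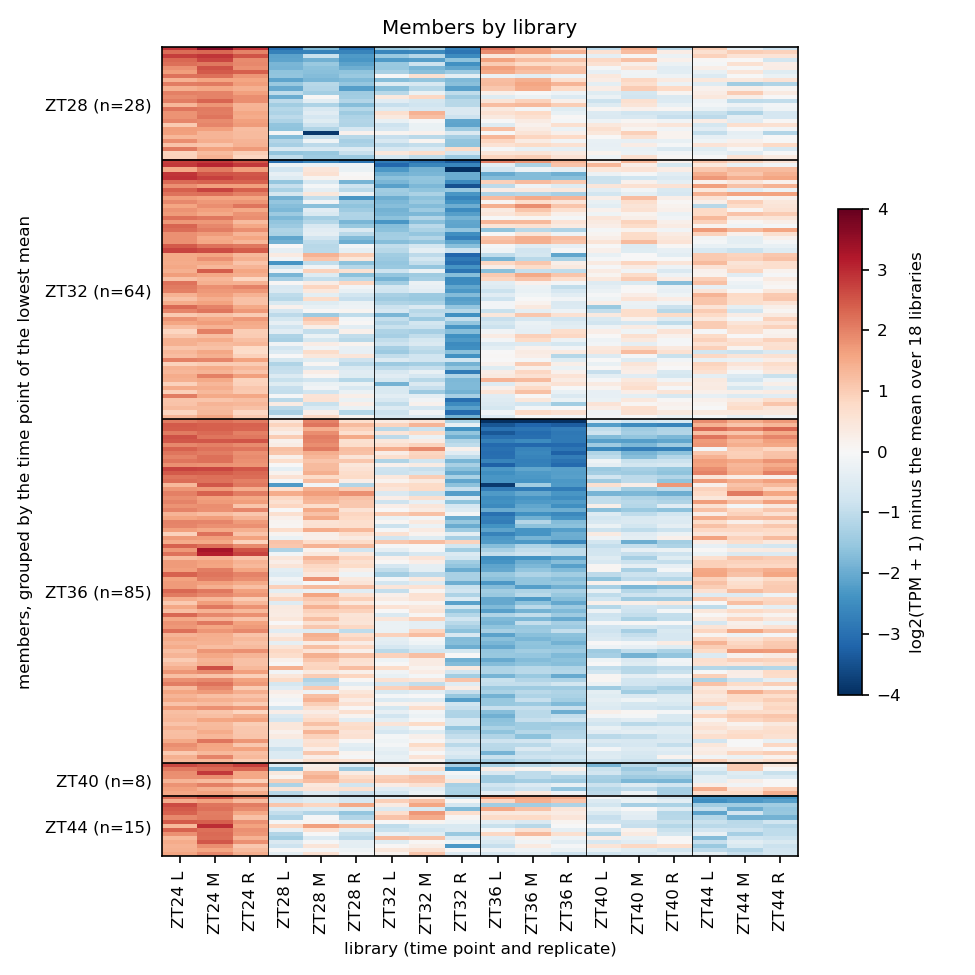
Level of each member (rows) in each of the 18 libraries (columns, by time point and replicate), as log2(TPM + 1) minus the member's mean over the libraries, with rows grouped by the time point of the lowest mean. The 85 members lowest at ZT36 and the 64 lowest at ZT32 fill most rows, and the ZT32 R column is lower than ZT32 L and M through most groups.

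The groups by lowest point differed in the shape of the day. The 85 members lowest at ZT36 had median levels of 31.3, 15, 6.47, 1.67, 4.61 and 17.6 TPM from ZT24 to ZT44, a single trough at the middle of the cycle with a gradual course on either side. In 59 of them the trough was at ZT36 in each replicate. The 64 lowest at ZT32 had medians of 32.7, 4.54, 2.17, 11.9, 13.5 and 11.7 TPM, with low levels at ZT28 and ZT32 and a nearly flat course from ZT36 to ZT44. The 28 lowest at ZT28 had medians of 19.6, 0.773, 1.75, 10.5, 5.73 and 5.01 TPM, near 0 only 4 h after the maximum and with a further maximum at ZT36. The 15 lowest at ZT44 had medians of 16.0, 2.75, 3.27, 3.15, 2.43 and 0.660 TPM. As ZT44 was the last time point, this grouping leaves no room for a return. The remaining 8, lowest at ZT40, had medians of 57.2, 9.13, 9.08, 5.96, 3.78 and 14.1 TPM. Outside the members lowest at ZT36, the lowest point was less often the same in each replicate. It was so in 35 of the 64 at ZT32, 9 of the 28 at ZT28, 3 of the 15 at ZT44 and 0 of the 8 at ZT40.

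**Figure D3:**
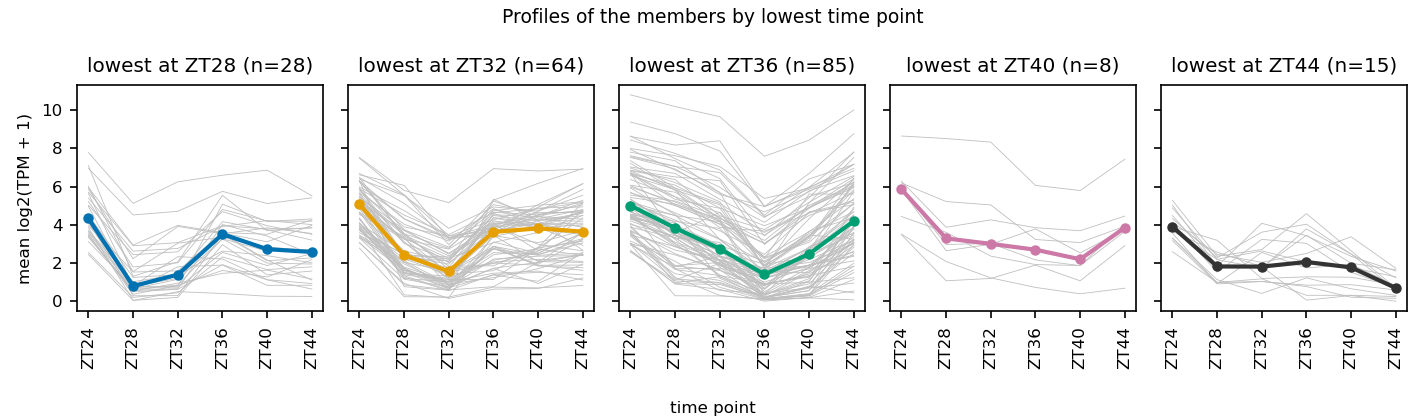
Mean log2(TPM + 1) of 3 replicates (y axis) at the 6 time points (x axis) for the members in the 5 groups by lowest time point, with a grey line per member and the median of the group in colour. The groups lowest at ZT28 and at ZT36 have opposite courses at ZT36, with medians of 10.5 and 1.67 TPM.

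The time point next to ZT24 in level was ZT28 in 41 members, ZT32 in 13, ZT36 in 45, ZT40 in 10 and ZT44 in 91. Members lowest at ZT36 mostly had ZT44 (50) or ZT28 (31) as their next highest point, the neighbours of ZT24 on a cycle of 24 h. Members lowest at ZT28 mostly had ZT36 there (19 of 28), and members lowest at ZT32 had ZT44 (34) or ZT36 (20). The 45 members with ZT36 as next highest point had medians of 27.8 TPM at ZT24, 2.10 TPM at ZT28, 2.07 TPM at ZT32, 15.3 TPM at ZT36, 6.14 TPM at ZT40 and 5.58 TPM at ZT44. ZT24 exceeded the next highest point by 0.13 to 2.78 on the log2(TPM + 1) scale with a median of 0.72, and by at least 1 in 69 members.

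The widest range of all belonged to a member of the single-trough kind. Glyma.03G137000 (chromosome 3, 35290305 to 35296922, plus strand; the widest in each group was picked after its values were seen) had 236, 260 and 239 TPM at ZT24 and 77.5, 219 and 90.5 TPM at ZT28. It had 71.2, 82.5 and 22.2 TPM at ZT32, 1.62, 2.59 and 2.65 TPM at ZT36, 37.9, 31.1 and 35.1 TPM at ZT40 and 206, 161 and 186 TPM at ZT44. The ZT36 libraries were below every other library, and ZT28 M alone among the ZT28 libraries was near the ZT24 level. The range was 6.24 on the log2(TPM + 1) scale, with means of 245 ± 13.2 TPM at ZT24 and 2.29 ± 0.575 TPM at ZT36 (SD, n = 3 each).

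Glyma.13G078400 (chromosome 13, 18427751 to 18433749, minus strand), also lowest at ZT36, had 67.4, 65.3 and 63.0 TPM at ZT24 and 22.4, 54.5 and 29.0 TPM at ZT28. It had 22.3, 30.8 and 9.24 TPM at ZT32, 0.175, 0.392 and 0.279 TPM at ZT36, 1.71, 1.13 and 1.02 TPM at ZT40 and 31.9, 25.9 and 30.2 TPM at ZT44. Its trough was broad, with all ZT36 and ZT40 libraries under 2 TPM, and it ended between ZT40 and ZT44.

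Glyma.19G261400 (chromosome 19, 50472634 to 50473483, minus strand) had 39.8, 34.7 and 33.6 TPM at ZT24, 17.0, 32.5 and 17.4 TPM at ZT28 and 20.4, 28.3 and 8.10 TPM at ZT32. It was listed at 0, 0.249 and 0.0528 TPM at ZT36, and had 0.338, 0.175 and 0.221 TPM at ZT40 and 6.39, 15.4 and 12.8 TPM at ZT44. The level stayed above 8 TPM in every library for 8 h after ZT24 and was under 1 TPM in all 6 libraries of ZT36 and ZT40. Before the trough only replicate M stayed near its ZT24 level, while L and R had already fallen at ZT28.

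Other members had the deep point straight after the maximum. Glyma.15G072400 (chromosome 15, 5540911 to 5542834, minus strand), the widest of those lowest at ZT28, had 110, 196 and 115 TPM at ZT24, 0.779, 3.37 and 0.922 TPM at ZT28 and 4.35, 4.82 and 1.32 TPM at ZT32. At ZT36 it was back at 68.0, 46.6 and 29.9 TPM, and it had 6.36, 40.7 and 5.97 TPM at ZT40 and 28.8, 10.9 and 7.45 TPM at ZT44. The ZT28 and ZT32 libraries did not overlap with those of any other time point, while replicates within ZT40 and ZT44 differed widely, ZT40 M above all.

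Glyma.07G125600 (chromosome 7, 15001863 to 15003239, minus strand) had 51.0, 52.4 and 42.8 TPM at ZT24, then 0.668, 0.708 and 0.745 TPM at ZT28 and 0.799, 0.885 and 0.482 TPM at ZT32. It had 38.5, 33.0 and 27.8 TPM at ZT36, 15.8, 24.8 and 12.5 TPM at ZT40 and 16.2, 20.6 and 19.8 TPM at ZT44. Glyma.01G006000 (chromosome 1, 585972 to 587305, plus strand), the widest of those lowest at ZT32, had 82.8, 85.8 and 69.4 TPM at ZT24, 0.519, 0.974 and 0.614 TPM at ZT28 and 0.765, 0.548 and 0.202 TPM at ZT32. These 2 genes shared an on-off course, with all 6 libraries of ZT28 and ZT32 under 1 TPM. Glyma.01G006000 then had 50.4, 40.4 and 30.0 TPM at ZT36, 14.4, 30.0 and 13.1 TPM at ZT40 and 25.4, 21.9 and 17.4 TPM at ZT44, below ZT24 in every library and far above ZT28 and ZT32.

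**Figure D4:**
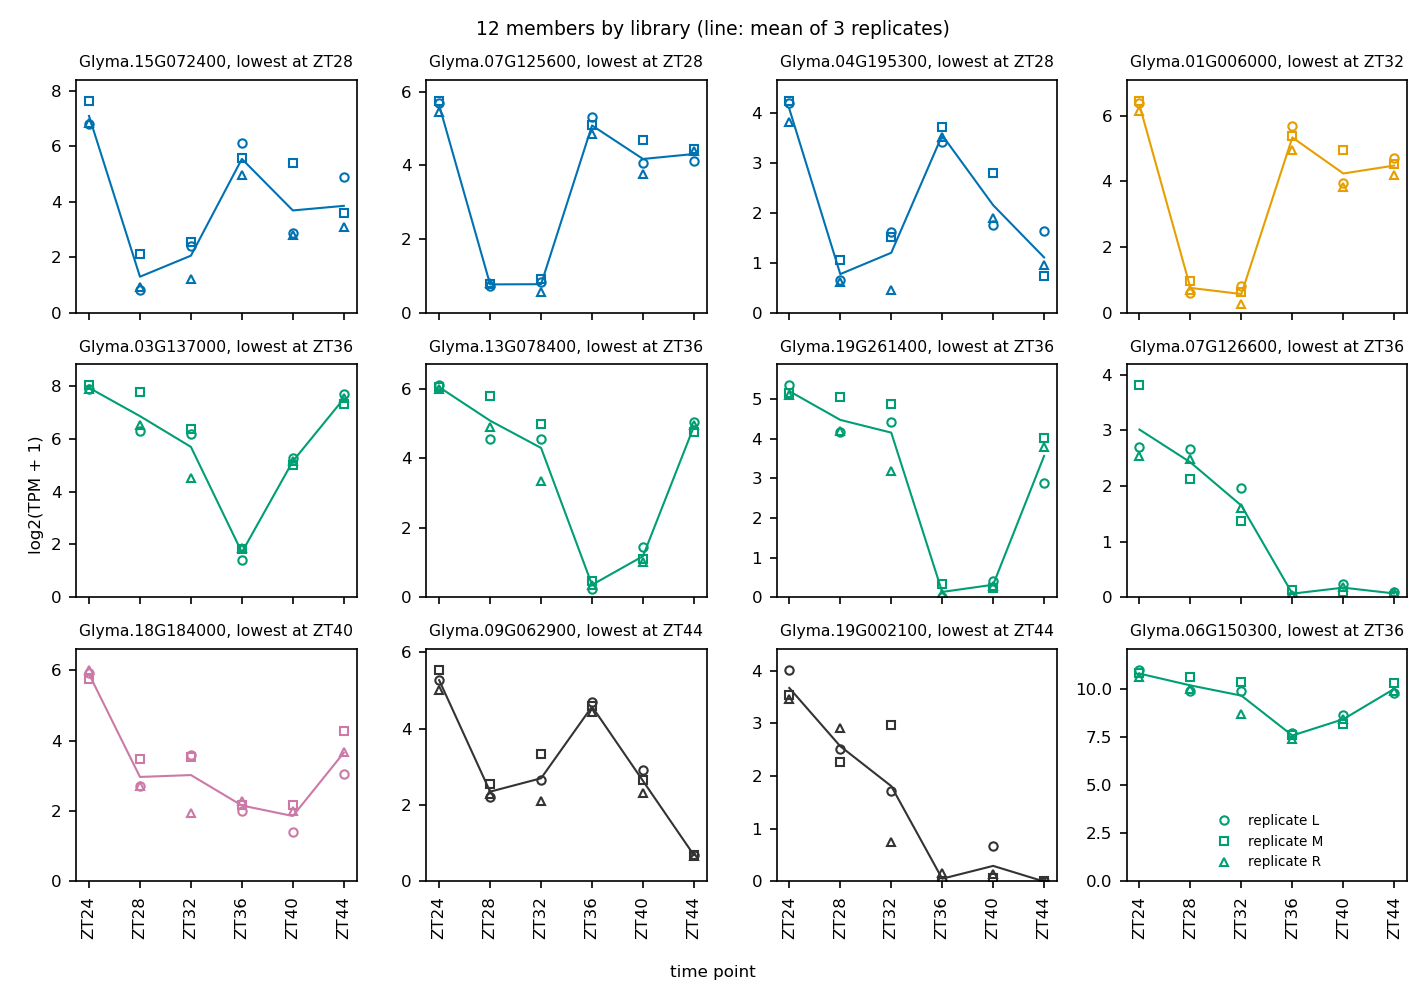
Level of 12 members on the log2(TPM + 1) scale (y axis, from 0 and with its own upper end in each panel) at the 6 time points (x axis), with symbols for replicates L, M and R and a line through the mean of 3; colours mark the lowest time point. Glyma.03G137000 has a single trough at ZT36, whereas Glyma.09G062900 has 20.9 to 25.0 TPM there.

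A renewed rise was defined on the mean of the replicates, as a further maximum apart from ZT24. It had to stand at least 1 on the log2(TPM + 1) scale above the higher of the troughs beside it. Each replicate had to have its tallest further maximum at the same time point, but of any height. This definition was met by 23 members (11.5%), at ZT36 in 20, at ZT40 in 2 and at ZT32 in 1. Of all expressed genes 0.426% met it, but only 11.7% of these genes have a range of at least 2. The wide-range genes with other highest points are the nearer comparison, with 21 of 200 for ZT36, 12 of 200 for ZT28 and 1 of 200 for ZT44. By lowest point it was met by 10 of the 64 members lowest at ZT32, 8 of the 28 lowest at ZT28 and 5 of the 15 lowest at ZT44, and by 0 of those lowest at ZT36 or ZT40. Leaving out a library in turn gave 22 to 30 such members. The replicate of that library was then no longer asked to agree, so the definition was looser than in the count of 23.

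The 20 members with the renewed rise at ZT36 had medians of 23.3, 1.80, 1.29, 14.2, 4.94 and 3.76 TPM from ZT24 to ZT44. In each of them all ZT36 libraries were above all ZT28 and ZT32 libraries, and ZT36 was the next highest point. The definition of the rise favours both. The height of the rise ran from 1.1 to 2.44 with a median of 1.40 on the log2(TPM + 1) scale. The tallest, Glyma.04G195300 (chromosome 4, 46720462 to 46724058, plus strand; chosen after its values were seen), had 17.2, 17.8 and 13 TPM at ZT24, 0.584, 1.07 and 0.526 TPM at ZT28 and 2.08, 1.85 and 0.380 TPM at ZT32. It had 9.71, 12.1 and 10.4 TPM at ZT36, then 2.36, 5.98 and 2.74 TPM at ZT40 and 2.09, 0.677 and 0.928 TPM at ZT44. All libraries of ZT24 and ZT36, 12 h apart, were above all others, and the low libraries of ZT28, ZT32 and ZT44 overlapped.

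Glyma.09G062900 (chromosome 9, 6004419 to 6011041, plus strand), the widest of the members lowest at ZT44, had 37.7, 45.7 and 31.1 TPM at ZT24, 3.60, 4.88 and 3.93 TPM at ZT28 and 5.32, 9.16 and 3.31 TPM at ZT32. It had 25.0, 23.3 and 20.9 TPM at ZT36, 6.63, 5.33 and 3.96 TPM at ZT40 and 0.630, 0.630 and 0.575 TPM at ZT44. The ZT36 libraries lay below those of ZT24 and above those of every other time point, and the ZT44 libraries were the lowest 3 of the 18. Glyma.06G164200 (chromosome 6, 13571908 to 13572768, plus strand) was the member with the renewed rise at ZT32, with 41.2, 33.2 and 23.1 TPM at ZT24, 3.22, 2.67 and 1.82 TPM at ZT28 and 12.2, 26.7 and 12.2 TPM at ZT32. Its later libraries had 9.35 to 9.97 TPM at ZT36, 2.77 to 5.41 TPM at ZT40 and 0.920 to 3.83 TPM at ZT44.

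A few members stood far higher at ZT24 than at any other time point. In 12 members ZT24 exceeded the next highest point by at least 2 on the log2(TPM + 1) scale. In all 12 the 3 ZT24 libraries were above the other 15, which a gap of this size favours. Their next highest points were spread, with 3 each at ZT36, ZT40 and ZT44, 2 at ZT32 and 1 at ZT28. The largest such gap was in Glyma.10G021200 (chromosome 10, 1834055 to 1834886, plus strand; chosen after its values were seen), which had 21.3, 20.1 and 17.4 TPM at ZT24 and 0.607 to 2.94 TPM in the other 15 libraries. Glyma.18G184000 (chromosome 18, 44321857 to 44323268, minus strand), the widest of the 8 lowest at ZT40, had 59.3, 52.8 and 63.6 TPM at ZT24, 5.57, 10.2 and 5.52 TPM at ZT28 and 11, 10.7 and 2.83 TPM at ZT32. It had 2.99, 3.54 and 3.91 TPM at ZT36, 1.66, 3.47 and 3.02 TPM at ZT40 and 7.23, 18.2 and 11.7 TPM at ZT44, so no library after ZT24 reached 20 TPM.

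The choice of members fixed that ZT24 was highest and did not state which of the time points on either side of it was higher. It still used the values of all time points, since each had to lie below ZT24 and the lowest one set the range. On a cycle of 24 h, ZT44 lies 4 h before and ZT28 4 h after the maximum, and ZT40 and ZT32 lie 8 h before and after it. In the series itself ZT44 was sampled 20 h after ZT24, and nothing was sampled before ZT24. In each comparison the first time point also had longer in constant light. Time in the cycle and time in constant light therefore cannot be told apart here. The differences ZT44 minus ZT28 and ZT40 minus ZT32 were tested for each of the 24620 expressed genes with limma on log2(TPM + 1), two-sided, with Benjamini-Hochberg adjustment over all of them and a threshold of 0.05. The lowest point of a member enters its range, so where calls are counted by lowest point the grouping sets part of the direction, and those counts are a description. The choice by range also bears on the shares of members called. Only 11.7% of all genes tested have a range of at least 2, and the other wide-range genes were not counted in these comparisons.

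Around ZT24 on a cycle of 24 h, the members were more often higher at ZT44 than at ZT28. Adjusted p was under the threshold for 73 members that were higher at ZT44, 36.5% against 16.3% of all genes tested, and for 18 that were higher at ZT28, 9% against 8.26%. The other 109 did not pass. The median difference of the members was 0.50 on the log2(TPM + 1) scale, against 0.17 over all genes tested. Without ZT28 L the first count was 53, beside 9.44% of all genes, and without ZT28 M it was 87, beside 17.0%. Of the 73, 37 belonged to the members lowest at ZT32, 19 to those lowest at ZT28, 16 to those lowest at ZT36 and 1 to those lowest at ZT40, and of the 18 higher at ZT28, 8 were lowest at ZT44 and 7 at ZT36.

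The largest differences upwards at ZT44 were in the on-off genes described before. Glyma.01G006000 had 25.4, 21.9 and 17.4 TPM at ZT44, against 0.519, 0.974 and 0.614 TPM at ZT28, a difference of 3.72 (SE 0.296, adjusted p 1.11e-10 by limma). Glyma.07G125600 differed by 3.54 (SE 0.263, adjusted p 3.46e-11), with all ZT44 libraries over 16 TPM and all ZT28 libraries under 1 TPM. In the other direction, Glyma.19G002100 (chromosome 19, 140298 to 141530, minus strand) was listed at 0 in all 3 ZT44 libraries, against 4.74, 3.82 and 6.5 TPM at ZT28, a difference of -2.57 (SE 0.324, adjusted p 6.56e-07). With ZT44 at 0 the size of this difference is set by the pseudocount and the scaling, and it was -5.64 with a pseudocount of 0.1 and -4.78 after rescaling without the 100 highest genes. At ZT24 it had 15.2, 10.7 and 9.96 TPM, at ZT32 2.28, 6.86 and 0.672 TPM, and at ZT36 and ZT40 less than 1 TPM in all 6 libraries. This gene had no return by ZT44.

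Glyma.07G126600 (chromosome 7, 15122531 to 15127433, minus strand) had 0.0615, 0.0159 and 0.0646 TPM at ZT44, against 5.34, 3.37 and 4.56 TPM at ZT28, a difference of -2.36 (SE 0.247, adjusted p 2.41e-08), which was -4.93 with a pseudocount of 0.1 and -4.30 after the same rescaling. It had 5.46, 13 and 4.82 TPM at ZT24 and 2.90, 1.58 and 2.04 TPM at ZT32, and less than 0.2 TPM in all libraries of ZT36 and ZT40. Its ZT24 and ZT28 libraries overlapped, since ZT24 R was below ZT28 L, and the highest point was set by each replicate on its own. Although both lie on chromosome 7, this gene and Glyma.07G125600 thus had opposite signs in the same comparison.

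Further from the maximum, the comparison depended on how the libraries were scaled. In ZT40 minus ZT32, 78 members (39.0%) were higher at ZT40, against 54.7% of all genes tested, and 41 (20.5%) were higher at ZT32, against 5.6%. The remaining 81 did not pass. The median difference was 0.34 in the members and 0.61 over all genes tested, so that relative to all genes the members were shifted by -0.27. With quantile normalization, which brings the median over all genes to 0.15, the members split into 53 higher at ZT40 and 69 higher at ZT32, and with TPM rescaled after leaving out the 100 highest genes into 61 and 63. Without ZT32 R the counts were 61 and 63 as well, and without ZT32 M they were 90 and 32. The share of members higher at ZT32 was above that of all genes under each of these settings, whereas the majority direction among the members was not the same under all of them.

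The direction followed the lowest point in these counts, as the grouping largely fixes. Of the members lowest at ZT32, 56 of 64 were higher at ZT40 and 0 at ZT32, and of those lowest at ZT28, which the comparison does not contain, 17 were higher at ZT40 and 2 at ZT32. Of the members lowest at ZT36, also outside the comparison, 3 were higher at ZT40 and 28 at ZT32, with a median difference of -0.34. Of those lowest at ZT44, 2 were higher at ZT40 and 7 at ZT32.

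**Figure D5:**
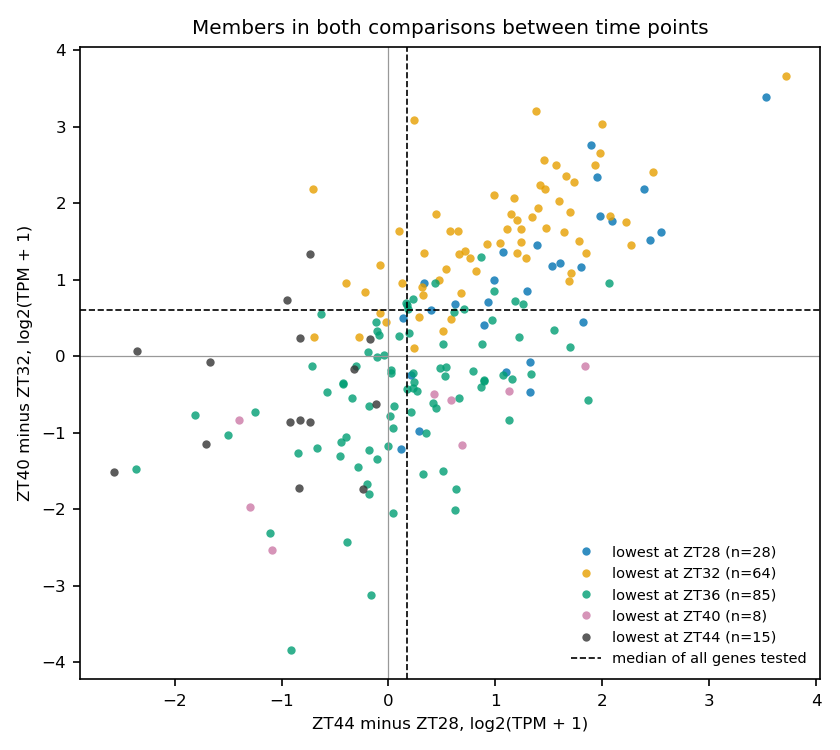
Differences of the 200 members between ZT44 and ZT28 (x axis) and between ZT40 and ZT32 (y axis), both on the log2(TPM + 1) scale, coloured by the time point of the lowest mean; dashed lines mark the medians of all genes tested, 0.17 and 0.61. Members lowest at ZT32 and ZT28 lie mostly to the upper right, and those lowest at ZT36 spread around 0 on the x axis and mostly below 0.61 on the y axis.

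Glyma.01G006000 and Glyma.07G125600 again had the largest differences upwards, of 3.67 (SE 0.296, adjusted p 1.20e-10 by limma) and 3.4 (SE 0.263, adjusted p 5.90e-11), with all ZT40 libraries over 12 TPM and all ZT32 libraries under 1 TPM. Without ZT32 R these differences were 3.51 and 3.29. The largest downwards were in 2 members with a broad trough. Glyma.19G261400 had 0.338, 0.175 and 0.221 TPM at ZT40, against 20.4, 28.3 and 8.10 TPM at ZT32, a difference of -3.84 (SE 0.338, adjusted p 6.60e-10), and of -4.33 without ZT32 R. It was -5.77 after rescaling without the 100 highest genes. Glyma.13G078400 had 1.71, 1.13 and 1.02 TPM at ZT40, against 22.3, 30.8 and 9.24 TPM at ZT32, a difference of -3.12 (SE 0.331, adjusted p 2.12e-08), and of -3.59 without ZT32 R. Between ZT44 and ZT28 the difference of Glyma.13G078400 was -0.16 (SE 0.331, adjusted p 0.760), within the spread of the replicates.

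Taking both comparisons side by side, 55 members (27.5%) were higher at ZT44 and at ZT40, against 14.6% of all genes tested. A further 12 (6%) were higher at ZT28 and at ZT32, against 3.72%, 1 was called in opposite directions and 58 (29%) passed in neither, against 33.8%. Without ZT32 R these counts were 52, 16, 7 and 45, beside 16.6%, 4.89%, 0.475% and 43.9% of all genes. The comparisons use separate libraries and the same estimate of the spread. Glyma.03G137000, the member of widest range, passed in neither, with differences of 0.66 (SE 0.387, adjusted p 0.220) between ZT44 and ZT28 and -0.54 (SE 0.387, adjusted p 0.219) between ZT40 and ZT32. Its difference between ZT44 and ZT28 was 1.12 (adjusted p 0.0339) without ZT28 M, and its difference between ZT40 and ZT32 was -1.13 (adjusted p 0.00443) without ZT32 R, so that leaving out a single library gave either call. With all libraries kept, its difference between ZT40 and ZT32 also passed after quantile normalization (-1.16, adjusted p 0.00347) and after rescaling without the 100 highest genes (-1.09, adjusted p 0.00635).

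Among the other members described, Glyma.15G072400 was higher at ZT44 than at ZT28 by 2.55 (SE 0.518, adjusted p 0.000490) and higher at ZT40 than at ZT32 by 1.63 (SE 0.518, adjusted p 0.00927). Its call between ZT40 and ZT32 was lost without ZT40 M (0.78, adjusted p 0.165) and without ZT32 R (1.21, adjusted p 0.0660). It was also lost after quantile normalization (0.96, adjusted p 0.189), after rescaling (1.35, adjusted p 0.0850) and with no filter (adjusted p 0.0560). Glyma.09G062900 was lower at ZT44 than at ZT28 by a difference of -1.66 (SE 0.277, adjusted p 4.28e-05), with no overlap of the replicates, and had a difference of -0.07 (SE 0.277, adjusted p 0.834) between ZT40 and ZT32. That difference passed after quantile normalization (-0.88, adjusted p 0.00139) and after rescaling (-0.59, adjusted p 0.0445), and was -0.37 (adjusted p 0.224) without ZT32 R. Glyma.18G184000 had a difference of -1.16 (SE 0.356, adjusted p 0.00709) between ZT40 and ZT32, which was -0.88 (adjusted p 0.0512) without ZT32 L and -1.71 (adjusted p 5.69e-05) without ZT32 R, and of 0.69 (SE 0.356, adjusted p 0.161) between ZT44 and ZT28.

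Some clock genes with a published identifier were set beside the members, and none of those shown here is a member. The 7 genes left out by name could not be members and are not shown. *GmLHY1b* (Glyma.07G048500) and *GmLHY2a* (Glyma.19G260900), both morning repressors, had their highest mean at ZT24, with 64.3 and 47.2 TPM, but replicate R was highest at ZT44, and *GmLHY2b* (Glyma.03G261800) had its highest mean at ZT44. Pearson correlations were taken across the means of the 6 time points (log2(TPM + 1), all from the same libraries), a small number of points that permits a description only. The choice of members by a maximum at ZT24 already sets much of their sign. The median over the members was 0.70 with *GmLHY1b*, 0.70 with *GmLHY2a* and 0.67 with *GmLHY2b*. Over all expressed genes these medians were -0.23, -0.21 and -0.15. Correlations over 0.9 were found for 57, 51 and 38 members (28.5%, 25.5% and 19%), against 2.39%, 2.15% and 2.24% of all expressed genes. By lowest point, the median with *GmLHY2a* was 0.19 for members lowest at ZT28, 0.55 for ZT32, 0.91 for ZT36, 0.62 for ZT40 and 0.18 for ZT44. *GmLHY2a* is itself lowest at ZT36, so the grouping favours a high value for the members lowest there. The median was 0.43 with *GmPRR5d* (Glyma.07G049400), a repressor of the day that was highest at ZT28. It was -0.60 with *GmLUX1* (Glyma.12G060200) and -0.48 with *GmLUX2* (Glyma.11G136600), parts of the evening complex that had their highest means at ZT36. Over all expressed genes these 3 medians were -0.61, 0.11 and 0.46. Correlations over 0.9 were found for 9, 0 and 0 members (4.5%, 0% and 0%), against 1.17%, 0.979% and 4.00% of all expressed genes. *GmLUX1* lay near the floor, with time-point means of 0.0147 to 1.50 TPM, and its replicate L was highest at ZT32.

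The members lay on all 20 chromosomes, 95 on the plus and 105 on the minus strand. Chromosome 6 held 20 of them, chromosome 2 held 19 and chromosome 12 held 15, each 1.34% to 1.37% of the expressed genes there. On the other chromosomes this share ran from 0.186% (chromosome 20, 2 members) to 1.25% (chromosome 1, 13 members). Their genomic span had a median of 2488 bp and ran from 153 to 13659 bp, against a median of 3904 bp for all expressed genes, and 13.5% spanned less than 1000 bp, against 6.23% of the expressed genes. The other wide-range genes were also short, with medians of 3050 bp for ZT28, 3129 bp for ZT36 and 3447 bp for ZT44. Among the members, the median span was 1209 bp for those lowest at ZT28, 2309 bp for ZT32 and 3089 bp for ZT36. Members were also more abundant, with a median over all libraries of 11.1 TPM, against 2.41 TPM for the expressed genes, which the range rule favours.

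In 7 cases 2 members were direct neighbours on a chromosome, which took in 13 members, and 5 of these pairs shared the lowest point. Such pairs were not counted for other genes. How often members that are not neighbours share a lowest point was not counted either. Glyma.06G164000 and Glyma.06G164100 on the minus strand lie 1 bp apart and were both lowest at ZT28, and Glyma.06G164200, 549 bp further on the plus strand, was lowest at ZT44. Neighbours on the same strand this close may share reads, which was not measured.

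As a check against the loci that were assembled from the reads themselves, 195 members had such a locus on the same strand over at least 50% of their span in all ZT24 libraries. By the TPM of that locus, 186 (95.4%) were highest at ZT24 in each replicate. The reads are the same, so this is no independent measurement. A locus on the opposite strand was found for 3 members in any library and for 1, Glyma.10G151100 (chromosome 10, 38607998 to 38608397, plus strand), in all libraries of a time point. The opposite-strand locus had 81.2, 106 and 76.2 TPM at ZT24, 4.08, 13.3 and 3.76 TPM at ZT28, 17.1, 17.6 and 3.16 TPM at ZT32, and its highest values, 182, 231 and 154 TPM, at ZT36. The member itself had 8.27, 9 and 5.45 TPM at ZT24 and 7.92, 7.44 and 3.38 TPM at ZT36 and is among those with the renewed rise at ZT36. Its level was thus far below that of the opposite strand at both maxima, and whether reads of the opposite strand entered it was not tested.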

How the data were processed

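Leaf RNA of 18 libraries (6 time points with 3 replicates each) had been depleted of ribosomal RNA with a stranded kit. The authors aligned the trimmed reads to Gmax_Wm82_a2_v1 with HISAT2 2.2.1 and quantified annotated genes and assembled loci with StringTie (version not given in the sources used here). The deposited tables list coverage, FPKM and TPM per gene and locus, 1 table per library, with no pooling. The deposited coverage is a read depth per base, entered here as a score because rounding leaves a few values just under 0. The TPM of assembled loci sums to 1000000, and the annotated genes are listed beside them on the same scale, so gene sums differ between libraries. The tables hold no read counts. No interval for counting error is therefore given, depth was taken from coverage and FPKM, and low values are the least precise.

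TPM was summed per identifier (11 libraries list a gene on 2 lines) and analysed as log2(TPM + 1), which understates changes of low genes. The expressed genes (time-point mean of 1 TPM or more) entered the limma fit (version 3.58.1, R 4.3.3; lmFit, contrasts.fit, eBayes with trend), with 1 mean per time point, all 18 libraries sharing 1 estimate of the spread, two-sided, Benjamini-Hochberg adjustment and a threshold of 0.05. The fit was tested on simulated data. L, M and R are biological replicates by the series description, and p-values measure the spread between them. Same-letter libraries of different time points did not deviate together, so the letters were not used as a block. Reads shared between paralogs, overlapping or neighbouring genes could be divided between them, which was not measured. Tables and figures were made in Python 3.11.15 (numpy 2.4.6, pandas 2.3.3, matplotlib 3.10.9).

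The members, comparisons and alternatives were chosen with earlier results of these data known. Of the 59048 rows of the RefSeq gene table, 0 hold an identifier of the files. The planned lists by annotated product and the leaf marker check were therefore not run, and promoter motifs, which need sequences, were not analysed here. Members named are the 2 with the largest difference in each direction of each comparison, and all other members named were chosen after their values were seen. Alternatives were a pseudocount of 0.1, a minimum of 5 TPM, no filter, quantile normalization, FPKM, a replicate block, eBayes without trend, rescaling that leaves out the 100 highest genes, other range limits (1.5 and 3), and each library left out in turn. Leaving out ZT28 M, ZT32 R and ZT36 L together was added after seeing the data, as were the alternatives for the lowest points and the renewed rise.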

Additional observations from a re-analysis of the deposited data

How the results depend on the processing

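The number of genes that met the membership rule was 296, and it was 514 with a pseudocount of 0.1, 460 with a range of at least 1.5, 118 with at least 3 and 500 when the highest point was taken from the mean alone. Of the 200 members, 157 still met the rule after quantile normalization, 159 after rescaling without the 100 highest genes and 182 with FPKM. In ZT40 minus ZT32, the members higher at ZT32 numbered 41, and 69 after quantile normalization, 63 after rescaling without the 100 highest genes and 64 without ZT28 M, ZT32 R and ZT36 L together (65 then being higher at ZT40). Leaving out each library gave 32 to 63, the lowest without ZT32 M and the highest without ZT32 R. In ZT44 minus ZT28, 106 members were higher at ZT44 and 18 at ZT28 without the 3 libraries, beside 24.4% and 10.1% of all genes. Without them 47 members were lowest at ZT28 and 41 at ZT32. The members lowest at ZT40 numbered 14 after quantile normalization and 5 to 11 with each library left out, the fewest without ZT28 M. Glyma.13G078400 differed between ZT44 and ZT28 by -0.43 to 0.19 with each library left out, the highest without ZT28 M, and by 0.19 without the 3 libraries. Glyma.09G062900 differed between ZT40 and ZT32 by -0.37 to 0.25, the highest without ZT32 M, with 0.09 without ZT40 R. The cause of these changes was not tested. The call of Glyma.19G261400 in ZT44 minus ZT28 (-0.91, adjusted p 0.0483 by limma) lies at the threshold and was lost under most alternatives.

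With the replicate block, 79 members were higher at ZT44 and 21 at ZT28, and 80 were higher at ZT40 and 42 at ZT32. Deviations of same-letter libraries from their time-point means correlated by -0.37 to 0.32, over 0.1 in 10 of 45 pairs, against 16 of 90 pairs of different letters. The other alternatives kept the counts of members called, of lowest points, of renewed rises and of genes that met the rule within 1.5 times, and other counts of members were not recomputed, apart from the calls in both comparisons without ZT32 R. The share of all genes called moved with the scaling, from 54.7% higher at ZT40 to 23.2% after quantile normalization and 17.7% after rescaling without the 100 highest genes. Promoter alternatives were not run.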
